A study of Mus musculus with 16 samples.

Results

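G3bp2 and 9 further genes of the stress granule core (G3bp1, Tia1, Tial1, Caprin1, Usp10, Pabpc1, Atxn2, Fmr1 and Fxr1) were followed in mammary carcinoma cells after inhibition of the microRNA miR-135b. They are 10 of 16593 genes named on the array, measured by the 22 of its 25697 probes that the platform annotation assigns to them. G3bp2 was chosen by its measured difference between the inhibitor and the control in these same intensities, and the others were added as granule core genes. The inhibitor differences of G3bp2 are therefore given as a description with no test, and the other genes carry the tests.

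TUBO, an established cell line from mammary tumours of BALB-neuT mice (animals with an activated rat ErbB2 oncogene), was transfected with Lipofectamine and 200 nM of a hairpin inhibitor. The inhibitor was either directed at miR-135b (anti-miR-135b) or a negative control, labelled scrambled and called control here. RNA was taken at 24 h (n = 2 per arm), 48 h (n = 3 per arm) and 72 h (n = 3 per arm), and each of the 16 samples was hybridized to 1 Illumina mouse array. All groups share the cell line, the transfection reagent and the dose, the cells are 1 line, and no untransfected group was analysed here. No label says whether samples of a group came from separate cultures, so p-values measure the spread between these samples only. Array numbers below are those of the labels.

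Stress granules are assemblies of messenger RNA and protein that form when translation initiation stalls. The paralogues G3BP1 and G3BP2 scaffold them, CAPRIN1 binds G3BP and promotes assembly, and USP10 competes for the same surface of G3BP and opposes it. TIA1, TIAL1, the poly(A)-binding protein PABPC1, ataxin-2 (Atxn2), FMRP (Fmr1) and FXR1 are RNA-binding proteins of the same granules. The arrays measured transcripts, not proteins or granules.

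The inhibitor acts on the mature microRNA cut from the miR-135b hairpin. The hairpin is shown from RefSeq (GRCm38.p6, chr1:132198088-132198184, plus strand) with the mature microRNA of its 3′ arm (chr1:132198142-132198163) and with miR-135a-5p (chr9:106154140-106154162, plus strand), because the 5′ arm of the hairpin holds the same seed as miR-135a-5p. Capitals mark bases 2 to 8 (the seed) of each mature microRNA and, in the hairpin, the 7 bases from position 17 that equal the seed of miR-135a-5p.
miR-135b hairpin: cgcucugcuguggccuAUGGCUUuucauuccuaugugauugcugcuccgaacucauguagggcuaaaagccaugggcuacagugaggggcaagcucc
miR-135b-3p: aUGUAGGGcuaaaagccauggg
miR-135a-5p: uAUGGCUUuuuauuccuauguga

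The arrays lay on 2 chips. The first held the 48 h arrays of both arms and the 24 h controls, and the second held the 72 h arrays of both arms and the 24 h anti-miR-135b arrays. The 24 h arrays took the last positions of each chip. At 24 h the inhibitor and the chip therefore cannot be told apart, and position on the chip cannot be told apart from arm at 48 and 72 h or from time in the time contrasts. Deposited intensities had array medians between 281.2 and 346.8. Of the mammary epithelial markers, 9 of 10 genes with a probe lay above the signal filter and 7 lay above the 90th percentile of all probes, with a mean log2 level between 10.91 and 11.62 on every array. Krt8, a luminal keratin, lay at the 99.6th percentile, whereas the keratin Krt19 lay at the 1.26th. Above the filter were 1 of 9 leukocyte, 3 of 12 fibroblast and endothelial, 2 of 6 adipocyte and 2 of 5 myoepithelial markers, and 0 of these lay above the 90th. The mean level of the leukocyte markers was 6.74 to 7.06 on all arrays, of the fibroblast and endothelial markers 6.63 to 7.09, of the adipocyte markers 6.67 to 7.18 and of the myoepithelial markers 6.78 to 7.40.

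Levels are log2 intensities after background correction and quantile normalization, and the number of arrays limits their precision. Tests used probes brighter, on average over the 16 arrays, than the median probe (a log2 level of 7.10). Of the 22 member probes 18 did, for 8 of the 10 genes. The 4 probes below it were ILMN_1251970 of G3bp2, ILMN_1241944 of Atxn2 and the only probes of Fmr1 and Fxr1, ILMN_1229462 and ILMN_1237409. Fmr1 read 6.28 to 7.27 over all arrays and Fxr1 read 5.91 to 6.98, so neither gene had a usable signal. Levels of different probes are not comparable with each other.

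G3bp2 was represented by 4 probes that did not behave alike. The scaffold's transcript was lower under anti-miR-135b at 48 and 72 h with ILMN_2666747, the probe that led to its choice. At 48 h this probe read 11.78, 11.26 and 11.38 on control arrays 4, 5 and 6, and 10.70, 10.73 and 11.05 on anti-miR-135b arrays 13, 14 and 15. The 72 h levels were 11.45, 11.08 and 11.11 on control arrays 7, 8 and 9, and 10.41, 10.23 and 10.10 on anti-miR-135b arrays 16, 17 and 18. Every anti-miR-135b array was below every control array at both times. At 24 h it read 10.86 and 11.40 on the control arrays and 10.85 and 10.81 on the anti-miR-135b arrays, with the anti-miR-135b arrays at or just below the lower control array.

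The differences of ILMN_2666747 were -0.65 at 48 h (1.57-fold lower) and -0.97 at 72 h (1.95-fold lower), with a mean of -0.81 and a range of -0.86 to -0.73 when each array was left out in turn. With arrays scaled to a common median in place of quantile normalization, the 48 h difference was -1.28 and the 72 h difference -0.69, so the larger difference moved from 72 h to 48 h. Under that scaling the median difference of all tested probes was itself -0.27 at 48 h and 0.08 at 72 h. With quantile normalization it was -0.01 at both times. The arms were also separate in the deposited intensities, which still hold differences in array brightness. They were 6477, 3195 and 3919 on the 48 h control arrays against 1290, 2194 and 1969 under anti-miR-135b, and 1950, 2120 and 2297 on the 72 h control arrays against 1337, 1686 and 1170. Array upper quartiles were 529.4, 455.7 and 484.7 against 375.8, 465.6 and 420.3 at 48 h, and 391.8, 440 and 456.5 against 406.2, 497.4 and 416.2 at 72 h. The mean deposited intensity of the G3bp2 probe ILMN_3114413 was 3822 against 1841 at 48 h, but 1677 against 1968 at 72 h. Its arms overlapped at 48 h, with 2544 to 6167 on the control arrays against 1334 to 2636 under anti-miR-135b. Lower at both times without overlap were 73 of the 12848 tested probes (0.568%).

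By group mean ± SD, ILMN_2666747 was highest in the 48 h controls (11.48 ± 0.27, n = 3), followed by the 72 h controls (11.21 ± 0.20, n = 3) and the 24 h controls (11.13 ± 0.38, n = 2). The anti-miR-135b groups followed at 10.83 ± 0.03 at 24 h (n = 2), 10.83 ± 0.19 at 48 h (n = 3) and 10.25 ± 0.15 at 72 h (n = 3). The 3 control groups lay within their spread of each other, and so did the 24 h and 48 h anti-miR-135b groups. The 72 h anti-miR-135b group stood below the next group by more than the SD of either.

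The bright probe ILMN_3114413, which the annotation ties to another G3bp2 transcript accession than the other 3 probes, showed no such separation. It read 11.71, 11.04 and 10.71 on the control arrays and 10.75, 11.03 and 10.68 on the anti-miR-135b arrays at 48 h. At 72 h it read 10.85, 10.96 and 10.60 on the control arrays and 11.58, 10.36 and 10.16 on the anti-miR-135b arrays. The arms overlapped at both times, and array 16 was the highest of the 72 h arrays with this probe and the highest of its own group with ILMN_2666747. Its differences were -0.34 at 48 h and -0.10 at 72 h, and the latter lay between -0.54 and 0.17 when each array was left out.

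The dimmer probe ILMN_2691815 read 9.20, 8.00 and 7.49 on the 48 h control arrays and 8.36, 7.90 and 7.92 on the 48 h anti-miR-135b arrays. At 72 h it read 8.33, 7.99 and 7.86 against 8.18, 7.74 and 7.76, with overlap again, and its difference was -0.17 at both times. The probe below the filter, ILMN_1251970, differed by 0.31 at 48 h and by -0.09 at 72 h. Over the 16 arrays, levels of ILMN_2666747 correlated with those of ILMN_3114413 at r = 0.36 and with those of ILMN_2691815 at r = 0.43, as a description over arrays that share 2 chips and 6 groups. The reduction at both times without overlap thus rests on 1 of the 4 G3bp2 probes, and the cause of the disagreement was not tested.

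**Figure D1:**
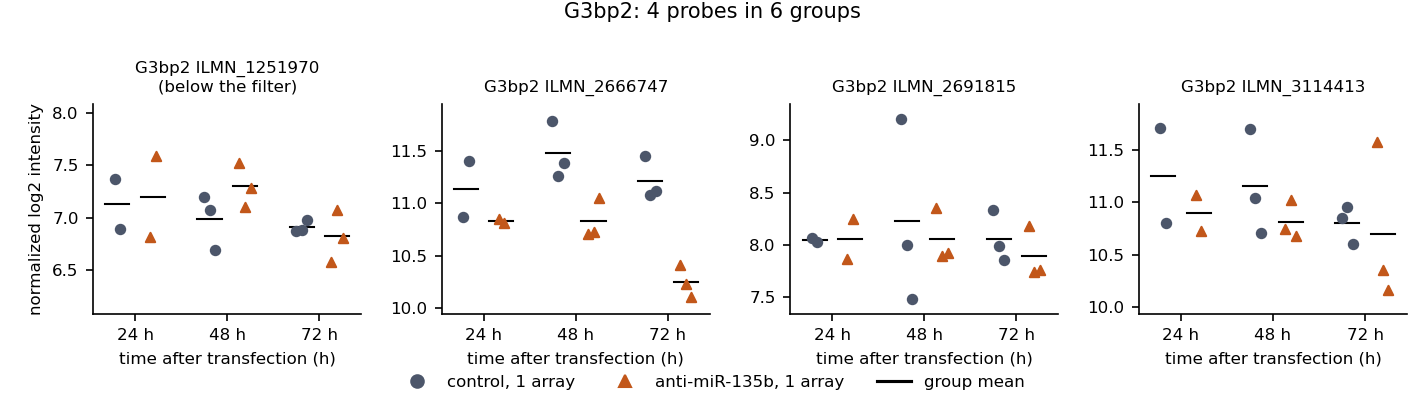
Normalized log2 intensity of the 4 G3bp2 probes (vertical axes, each with its own range) by hours after transfection, with circles for control arrays, triangles for anti-miR-135b arrays and bars for group means. With ILMN_2666747 all 3 anti-miR-135b arrays lie below all 3 control arrays at 48 h and at 72 h, while the arms overlap at both times with ILMN_2691815 and ILMN_3114413.

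G3bp1, the paralogue with the same scaffold role, was measured by 2 bright probes that also disagreed. ILMN_2719888 read 9.39, 9.22 and 7.55 on the 48 h control arrays and 10.39, 9.05 and 9.50 on the 48 h anti-miR-135b arrays. The 72 h levels were 7.90, 9.06 and 9.02 on the control arrays and 8.74, 9.04 and 9.31 under anti-miR-135b. The arms overlapped at both times, and control arrays 6 and 7 were each far below the other arrays of their group. The difference was 0.93 at 48 h (95% confidence interval 0.04 to 1.81, unadjusted p = 0.042, adjusted p = 0.79) and 0.65 in the mean of 48 and 72 h (SE 0.30, adjusted p = 0.62), neither past the threshold. When arrays were left out in turn the 48 h difference ranged from 0.34 to 1.26.

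ILMN_2774825 of G3bp1 read 10.10, 10.95 and 10.93 on the 48 h control arrays and 10.65, 10.92 and 11.38 under anti-miR-135b. Its 72 h levels were 10.74, 10.90 and 10.40 against 10.33, 10.15 and 10.68. Its mean difference was 0.01 (95% confidence interval -0.44 to 0.47). Levels of the G3bp1 probes correlated at r = -0.27 over the 16 arrays. An opposite movement of the paralogues G3bp1 and G3bp2 was thus not seen with all of their probes.

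None of the 15 tested probes of the 7 genes other than G3bp2 passed an adjusted p of 0.05 in limma at 48 h, at 72 h or in their mean, where 0% of all tested probes did. At an unadjusted p under 0.05 the counts were 1 of 15 at 48 h (6.24% of all tested probes), 4 of 15 at 72 h (7.13%) and 3 of 15 in the mean (7.84%). The median difference of the 15 probes was 0.10 at 48 h, -0.02 at 72 h and -0.03 in the mean, beside -0.01, -0.01 and -0.0031 over all tested probes. Groups did not overlap for 2 of the 15 probes at 48 h (10.2% of all tested probes) and for 5 of 15 at 72 h (15.1%).

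Tia1, which encodes a granule RNA-binding protein with a prion-like tail, was among these at both times but in opposite directions. Its single probe ILMN_2911936 read 7.57, 7.69 and 7.44 on the 48 h control arrays and 7.34, 7.43 and 6.87 on the 48 h anti-miR-135b arrays. The 72 h levels were 6.45, 6.54 and 7.20 on the control arrays and 7.46, 7.61 and 7.32 under anti-miR-135b. Anti-miR-135b arrays were all lower at 48 h and all higher at 72 h. The difference was -0.35 at 48 h (SE 0.23) and 0.73 at 72 h (SE 0.23, 1.66-fold, unadjusted p = 0.0048, adjusted p = 0.53). The 72 h gap sits beside 2 control arrays, 7 and 8, that were low for this probe, and the probe was dim, at the 60.0th percentile of signal.

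Tial1, the paralogue of Tia1, differed little in the mean of 48 and 72 h with either probe. ILMN_1247931 read 7.35 to 7.67 on the 48 h control arrays and 7.39 to 7.51 under anti-miR-135b, and 7.30 to 7.38 against 7.27 to 7.42 at 72 h, with a mean difference of -0.03 (95% confidence interval -0.31 to 0.24). ILMN_2590837 had a mean difference of -0.12 (95% confidence interval -0.43 to 0.20), from -0.32 at 48 h (SE 0.21) and 0.08 at 72 h (SE 0.21). The arms overlapped at both times with each of these probes.

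Pabpc1, the cytoplasmic poly(A)-binding protein, was measured by 3 probes, and all 3 were lower under anti-miR-135b at 72 h without passing the adjusted threshold. The brightest, ILMN_1259482 at the 99.4th percentile of signal, read 14.11, 14.18 and 13.88 on the 72 h control arrays and 13.39, 13.89 and 13.19 on the 72 h anti-miR-135b arrays, with array 17 just above control array 9. Its difference at 72 h was -0.57 (95% confidence interval -1.08 to -0.05, unadjusted p = 0.034, adjusted p = 0.63). ILMN_1259769, a dim probe at the 63.4th percentile, read 8.48, 7.82 and 7.77 against 7.03, 7.43 and 7.32 at 72 h, without overlap. It differed by -0.76 (unadjusted p = 0.0082, adjusted p = 0.60). ILMN_2705407 read 8.58, 8.27 and 8.52 against 7.67, 8.09 and 8.38 and differed by -0.41 (SE 0.37).

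At 48 h the arms overlapped for all 3 Pabpc1 probes, with differences of -0.30, -0.02 and 0.34 in the same order. The mean of 48 and 72 h was -0.43 for ILMN_1259482 (SE 0.17, unadjusted p = 0.023, adjusted p = 0.57), -0.39 for ILMN_1259769 (SE 0.18, adjusted p = 0.62) and -0.03 for ILMN_2705407 (SE 0.26).

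**Figure D2:**
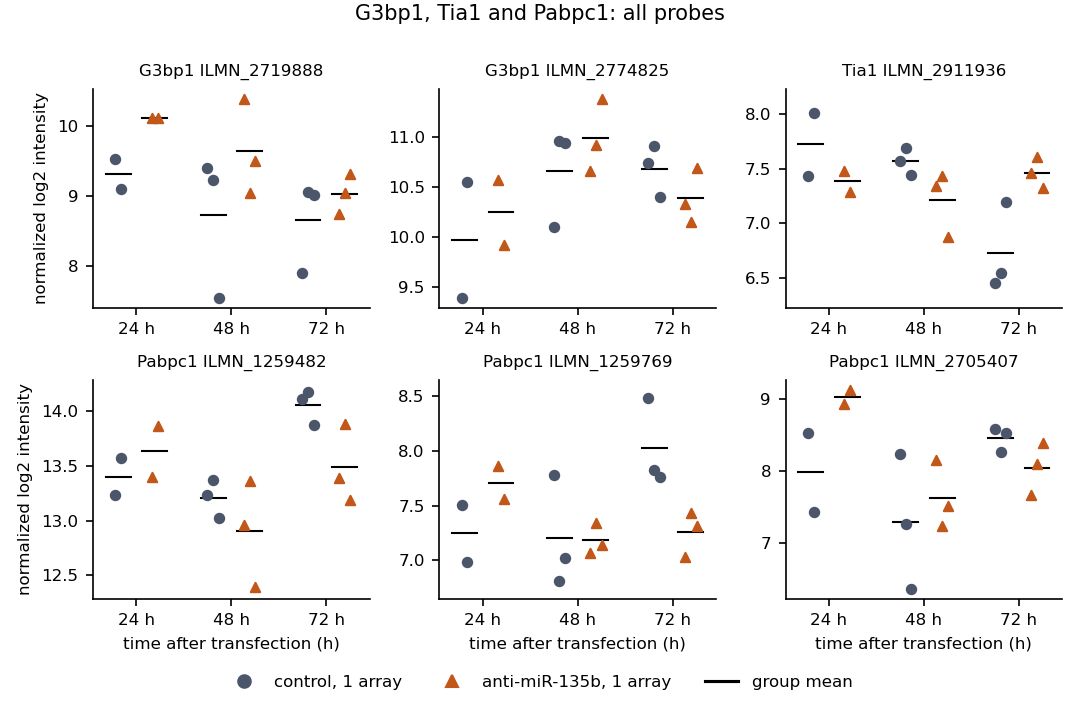
Normalized log2 intensity of the 2 G3bp1 probes, the Tia1 probe and the 3 Pabpc1 probes (vertical axes, each with its own range) by hours after transfection, with circles for control arrays, triangles for anti-miR-135b arrays and bars for group means. The anti-miR-135b arrays of Tia1 lie below the controls at 48 h and above them at 72 h, and those of Pabpc1 ILMN_1259769 lie below the controls at 72 h.

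Caprin1, the G3BP partner that promotes granule assembly, was measured by 2 bright probes, and both read higher under anti-miR-135b on average without passing the threshold. ILMN_2761008 read 11.17, 11.28 and 9.02 on the 48 h control arrays and 11.57, 10.71 and 11.08 under anti-miR-135b. At 72 h it read 9.16, 9.52 and 9.88 against 10.39, 10.39 and 10.20, with all anti-miR-135b arrays above all control arrays. Its mean difference was 0.72 (95% confidence interval -0.02 to 1.45). ILMN_1247066 read 9.77, 10.75 and 11.25 on the 72 h control arrays and 11.19, 11.59 and 10.77 under anti-miR-135b, with overlap, and its mean difference was 0.49 (95% confidence interval -0.05 to 1.04).

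Usp10, the deubiquitinase that competes with CAPRIN1 for G3BP, had mean differences of -0.04 (ILMN_1217931, SE 0.17), 0.07 (ILMN_2443129, SE 0.17) and 0.15 (ILMN_2868188, SE 0.15). The widest of the 3 confidence intervals ran from -0.29 to 0.43. At 72 h ILMN_1217931 read 7.23, 7.61 and 7.31 on the control arrays and 7.17, 7.22 and 7.22 under anti-miR-135b, which did not overlap, and the difference was -0.18 (SE 0.23).

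Atxn2 encodes ataxin-2, a partner of the poly(A)-binding protein, and its probe ILMN_1235437 also changed direction between the times. It read 9.24, 9.49 and 9.29 on the 48 h control arrays and 9.60, 9.76 and 9.61 on the anti-miR-135b arrays. At 72 h it read 9.96, 10.24 and 9.97 on the control arrays and 9.40, 9.88 and 9.58 under anti-miR-135b. Anti-miR-135b arrays were all higher at 48 h and all lower at 72 h. The difference was 0.31 at 48 h (SE 0.18) and -0.44 at 72 h (SE 0.18, unadjusted p = 0.028, adjusted p = 0.63). The second bright probe, ILMN_3136056, gave 0.15 and -0.37, with overlapping arms at both times, and its levels correlated with those of ILMN_1235437 at r = 0.85 over the 16 arrays.

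Only Tia1 and this Atxn2 probe, 2 of the 15, had separate arms at both times in opposite directions, as 0.537% of all tested probes did. The interaction term, the 72 h difference minus the 48 h difference, was 1.09 for Tia1 (SE 0.32, adjusted p = 0.85) and -0.75 for Atxn2 ILMN_1235437 (SE 0.26, adjusted p = 0.85). At an unadjusted p under 0.05 it picked these 2 of the 15 probes (5.5% of all tested probes) and 0 passed after adjustment (0% of all). With median scaling the Atxn2 term was -0.02 and the Tia1 term 1.17. The median term of all tested probes was then 0.37, against 0.01 with quantile normalization.

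At 24 h, where the arms lay on different chips, 0 of the 15 probes passed the adjusted threshold (0% of all tested probes) and 1 had an unadjusted p under 0.05 (4.06% of all). That was Pabpc1 ILMN_2705407, which read 8.53 and 7.44 on the control arrays and 8.93 and 9.12 under anti-miR-135b, a difference of 1.04 (SE 0.46, adjusted p = 1.00). Arms did not overlap for 5 of the 15 probes, beside 32.9% of all tested probes with 2 arrays a side.

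**Figure D3:**
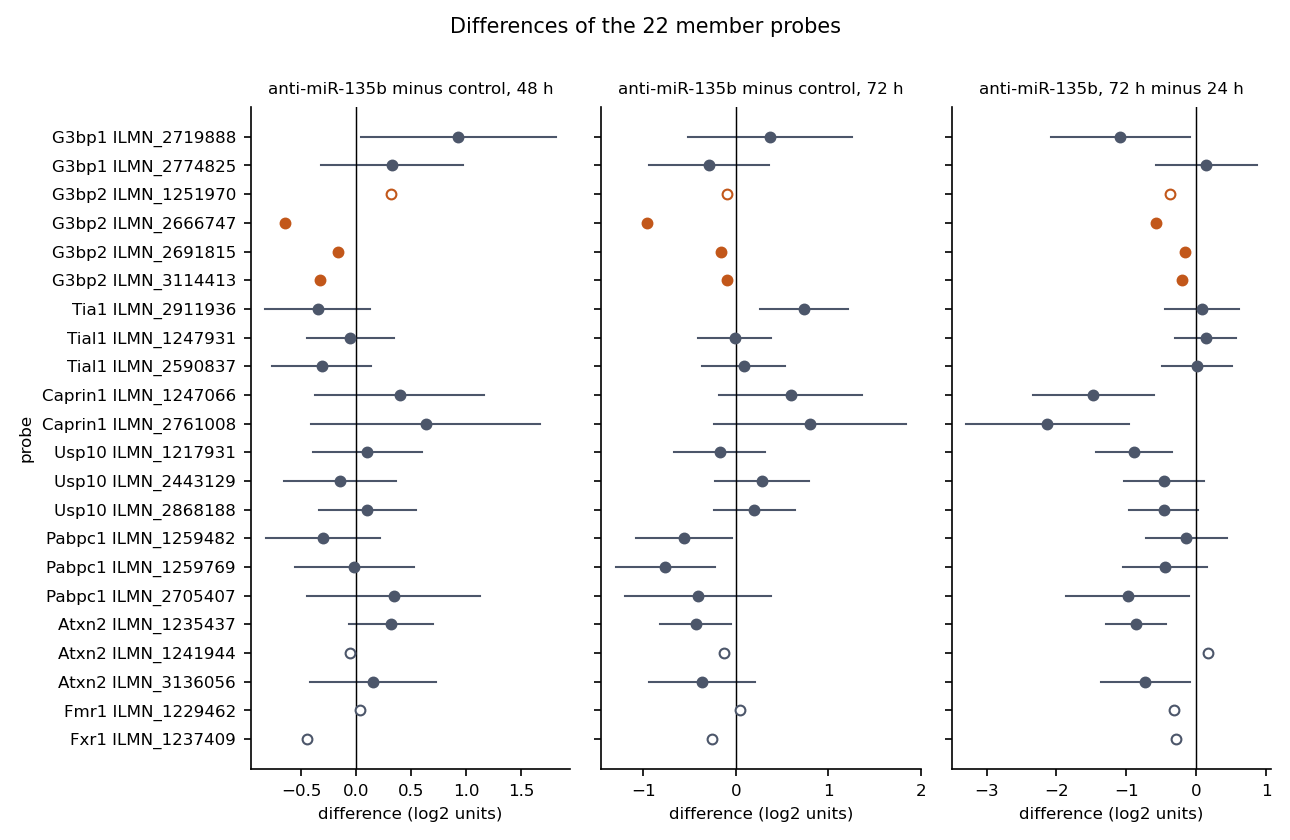
Differences in log2 units (horizontal axes) of the 22 probes of the 10 genes for anti-miR-135b minus control at 48 h and at 72 h and for 72 h minus 24 h under anti-miR-135b, with lines for 95% confidence intervals of the tested probes, colour for G3bp2, which has no intervals, and open circles for probes below the signal filter. The 4 probes of Caprin1, Usp10 and Atxn2 that passed the adjusted threshold over time lie between -2.13 and -0.87 in the right panel.

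Probes of granule genes past the adjusted threshold were found over time after transfection. From 24 to 72 h under anti-miR-135b, within the second chip, 4 of the 15 probes fell at an adjusted p under 0.05 (3.77% of all tested probes fell and 7.98% were called in either direction), and 0 rose. They were both Caprin1 probes, Usp10 ILMN_1217931 and Atxn2 ILMN_1235437. With the filter at the 75th percentile, 3 of 9 probes of these genes were called, beside 981 of 6424 probes in all. The median change of the 15 probes was -0.47, beside 0.01 over all tested probes, and 7 of 15 were lower at an unadjusted p under 0.05 (11.3% of all). For 10 of the 15 every 72 h array was below both 24 h arrays (21.9% of all).

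Caprin1 ILMN_2761008 read 11.97 and 12.94 at 24 h and 10.39, 10.39 and 10.20 at 72 h under anti-miR-135b, and fell by 2.13 on the log2 scale (SE 0.55, 4.38-fold, adjusted p = 0.025). Caprin1 ILMN_1247066 read 12.42 and 12.89 at 24 h and 11.19, 11.59 and 10.77 at 72 h, and fell by 1.47 (SE 0.41, 2.77-fold, adjusted p = 0.034). The times did not overlap with either probe. Atxn2 ILMN_1235437 read 10.32 and 10.65 at 24 h and 9.40, 9.88 and 9.58 at 72 h, and fell by 0.87 (SE 0.20, 1.82-fold, adjusted p = 0.015). Usp10 ILMN_1217931 read 7.75 and 8.44 at 24 h and 7.17, 7.22 and 7.22 at 72 h, and fell by 0.89 (SE 0.26, 1.85-fold, adjusted p = 0.044). This Usp10 probe was dim, at the 66.8th percentile of signal, with 72 h levels close to the filter. It was not called without background correction or without the filter.

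These calls depended on single arrays. Without 24 h array 12, which leaves 1 array at that time whose spread is taken from the other groups, the count was 0 (25 of all tested probes against 1025), without 72 h array 16 it was also 0 (441 of all), without array 18 it was 1 and without array 17 it was 2. It was 0 with median scaling and 1, Atxn2 ILMN_1235437, with the authors' deposited value table. All 4 differences stayed negative under each alternative run. The Caprin1 fall with ILMN_2761008 ranged from -2.62 to -1.64 when arrays were left out.

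The other probes of these genes gave smaller changes. Usp10 ILMN_2443129 changed by -0.46 (SE 0.27) and ILMN_2868188 by -0.47 (SE 0.23), with separate times in both. Atxn2 ILMN_3136056 changed by -0.73 (SE 0.30, adjusted p = 0.15). Of the remaining members, G3bp1 ILMN_2719888 had a change of -1.09 (SE 0.47, adjusted p = 0.17) and Pabpc1 ILMN_2705407 of -0.98 (SE 0.42, adjusted p = 0.16), while Tia1 had 0.08 (SE 0.25), the Tial1 probes 0.13 (SE 0.21) and 0.01 (SE 0.24), and G3bp1 ILMN_2774825 0.14 (SE 0.34). G3bp2 ILMN_2666747 went from 10.85 and 10.81 at 24 h to 10.41, 10.23 and 10.10 at 72 h, a description since it shares the 72 h arrays with its choice.

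In the control arm, from 24 to 48 h within the first chip, 0 of the 15 probes passed the adjusted threshold (0.926% of all tested probes did) and 2 were lower at an unadjusted p under 0.05 (5.3% of all). Atxn2 ILMN_1235437 read 10.05 and 10.10 at 24 h and 9.24, 9.49 and 9.29 at 48 h, a difference of -0.73 (SE 0.20, adjusted p = 0.11). It was the 1 member that passed without background correction and with the authors' deposited value table. Caprin1 ILMN_1247066 read 12.95 and 11.69 at 24 h and 11.25, 11.43 and 11.05 at 48 h, a difference of -1.08 (SE 0.41, adjusted p = 0.27). With median scaling, under which the median change of all probes in this contrast was 0.32 and not 0.02, the 1 member that passed was G3bp1 ILMN_2774825.

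Changes within an arm that span both chips, where chip and time cannot be told apart, were -1.73 and -1.91 for the Caprin1 probes ILMN_1247066 and ILMN_2761008 from 24 to 72 h in the control and -1.02 and -1.34 from 24 to 48 h under anti-miR-135b. The Atxn2 probe ILMN_1235437 had -0.02 and -0.83 in these same contrasts. Caprin1 read lower after 24 h in both arms, and Atxn2 read alike in the 24 h and 72 h controls. Whether the arms differed in their course from 24 h was not tested, since the 24 h arms lay on different chips. From 48 to 72 h that difference is the interaction term above, which 0 of the 15 probes passed.

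**Figure D4:**
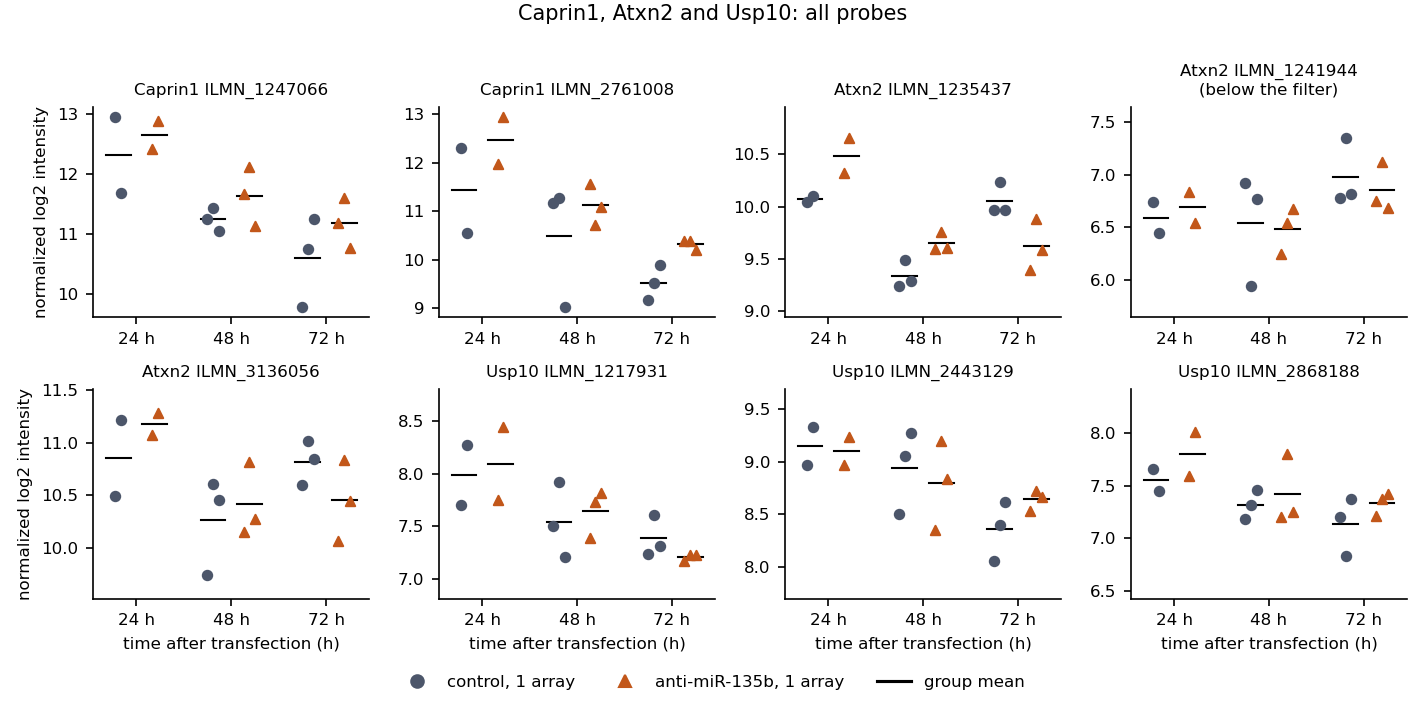
Normalized log2 intensity of the 2 Caprin1, 3 Atxn2 and 3 Usp10 probes (vertical axes, each with its own range) by hours after transfection, with circles for control arrays, triangles for anti-miR-135b arrays and bars for group means. Caprin1 ILMN_2761008 goes from 11.97 and 12.94 at 24 h to 10.20 to 10.39 at 72 h under anti-miR-135b, and Atxn2 ILMN_1235437 is higher at 48 h and lower at 72 h on the anti-miR-135b arrays than on the controls.

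Promoter windows of 250 bases before the annotated start (RefSeq, GRCm38.p6) matched 9 of the 10 genes by symbol, with 14 windows. They are shown for G3bp2 and for Caprin1 and Atxn2, which each had a probe that fell from 24 to 72 h under anti-miR-135b. Usp10 also had such a probe, but its window is not shown. Windows are chr5:92083599-92083848 (minus strand) for 1 of the G3bp2 starts, chr2:103797079-103797328 (minus strand) for Caprin1 and chr5:121711359-121711608 (plus strand) for Atxn2. Capitals mark matches, on either strand, to 5 motifs chosen after the sequences were seen.
G3bp2: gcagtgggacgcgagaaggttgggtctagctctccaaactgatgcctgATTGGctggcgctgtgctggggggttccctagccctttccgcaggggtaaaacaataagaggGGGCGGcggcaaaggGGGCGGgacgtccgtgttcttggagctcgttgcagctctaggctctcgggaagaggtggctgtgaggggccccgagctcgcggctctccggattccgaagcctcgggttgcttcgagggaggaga
Caprin1: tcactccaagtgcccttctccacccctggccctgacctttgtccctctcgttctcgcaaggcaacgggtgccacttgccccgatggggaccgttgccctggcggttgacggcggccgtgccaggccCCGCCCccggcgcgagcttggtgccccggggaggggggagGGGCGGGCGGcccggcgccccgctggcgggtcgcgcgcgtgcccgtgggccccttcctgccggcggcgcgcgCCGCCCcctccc
Atxn2: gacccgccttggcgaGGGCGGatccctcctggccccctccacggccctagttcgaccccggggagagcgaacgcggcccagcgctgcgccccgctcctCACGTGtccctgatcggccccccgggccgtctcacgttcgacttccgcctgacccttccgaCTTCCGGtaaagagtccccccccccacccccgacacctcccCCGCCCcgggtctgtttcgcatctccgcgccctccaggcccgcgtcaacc

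The GC box was searched as GGGCGG and lay in 9 of the 14 windows of these genes and in 32.7% of 32851 windows of the same length. The windows of Fmr1 overlap and share their matches, and by gene the GC box was found in 7 of 9. Caprin1 held 4 of them, at -124, -84, -80 and -12 from the start, of which the middle pair overlap. The G3bp2 window held GC boxes at -140 and -125 and a CCAAT box at -202. The CCAAT box, searched as CCAAT, was present in 2 of the 14 windows and in 33.9% of all windows. The Atxn2 window held 2 GC boxes, an E-box at -152 and an ETS match at -91. The E-box, searched as CACGTG, lay in 3 of the 14 windows and 6.02% of all windows. The ETS motif, searched as CCGGAAG, lay in 1 of the 14 and 6.91% of all windows. The cyclic AMP element, searched as TGACGTCA, lay in 1.55% of all windows and in 0 of these 14. Outside G3bp2, windows with no match to any of the motifs were those of Tia1 and Usp10. A Tial1 window (chr7:128461514-128461763) and another window of Atxn2 (chr5:121738282-121738531) also held none. Of the G3bp2 windows not shown, chr5:92083338-92083587 held a GC box at -171 and chr5:92137726-92137975 held no match. These matches describe letters and no binding was measured.

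Genes of the same machinery outside the 10 were read from 6 lists. For the mean of 48 and 72 h, 0 genes passed the adjusted threshold in any list (0% of all tested probes did), each gene by its brightest tested probe. They are 35 other granule RNA-binding proteins, 23 initiation factors, 8 kinases and phosphatase subunits acting on eIF2alpha, 18 proteins of processing bodies, 15 genes of granule clearance and 4 Ras pathway partners of G3BP. Their median differences were -0.01, 0.09, -0.03, 0.02, 0.10 and 0.14, beside -0.0031 over all tested probes. The smallest unadjusted p values of the lists were those of Rasa1 and Sqstm1.

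Rasa1 encodes the Ras GTPase-activating protein from which the G3BP family takes its name. Its probe read 11.36 ± 0.11 in the 48 h controls and 10.37 ± 0.38 under anti-miR-135b (SD, n = 3 each), and 11.08 ± 0.21 against 10.20 ± 0.30 at 72 h (SD, n = 3 each). Its mean difference of -0.93 (SE 0.19) had an adjusted p of 0.19, which was 0.037 with array weights and 0.055 to 0.44 when arrays were left out. Over all alternatives other than left-out arrays this adjusted p ran from 0.0029 to 0.37. Sqstm1, the autophagy receptor p62, read 11.02 ± 0.75 against 12.09 ± 0.38 at 48 h and 11.48 ± 0.38 against 12.34 ± 0.16 at 72 h (SD, n = 3 each). Its mean difference was 0.96 (SE 0.22, adjusted p = 0.24, and 0.010 to 0.67 over the same alternatives). Eif3b, a subunit of the initiation factor eIF3, differed by 0.72 (SE 0.19, adjusted p = 0.32) and the helicase Ddx6 by -0.67 (SE 0.22, adjusted p = 0.45). Of the 2 other tested Ddx6 probes 1 differed in the opposite direction.

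From 24 to 72 h under anti-miR-135b, 5 of the 35 granule RNA-binding proteins fell and 1 rose, with a median of -0.34, where 3.77% of all tested probes fell, 7.98% were called in either direction and the median was 0.01. Listed genes were read by their brightest probe, and brighter probes were called more often. With the filter at the 75th percentile, 981 of 6424 probes were called, while 19 of 86 listed genes fell and 4 rose. The RNA helicase Ddx3x fell by 1.44 (SE 0.25, adjusted p = 0.0028), and the cold-inducible protein Cirbp was higher by 1.20 (SE 0.22, adjusted p = 0.0044). Of the 23 initiation factors 6 fell and 1 rose, with a median of -0.43 (3.77% of all tested probes fell). Eif1a, which acts in start codon scanning, fell by 1.88 (SE 0.26, adjusted p = 0.00075), and Eif5, Eif3b and Eif4a1 fell by 1.42, 1.22 and 0.93.

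Against the same shares over all tested probes (3.77% lower and 7.98% in either direction), 2 of the 8 genes acting on eIF2alpha fell. They were Ppp1r15a (GADD34), the stress-induced phosphatase subunit, by 2.06 (SE 0.33, adjusted p = 0.0021), and Eif2ak2, the double-stranded RNA sensor kinase PKR, with a change of -2.20 (SE 0.42, adjusted p = 0.0049). Of the 15 clearance genes 4 fell and 1 rose (7.98% of all tested probes were called in either direction). Sqstm1 fell by 2.54 (SE 0.35, adjusted p = 0.00075), and Vcp, the segregase that helps dissolve granules, by 1.18 (SE 0.30, adjusted p = 0.022). Of the 18 processing body genes 0 fell and 1 rose, the deadenylase subunit Pan2 (0.75, adjusted p = 0.029). Rasa1 fell by 1.01 (SE 0.30, adjusted p = 0.045), the 1 call among the 4 Ras pathway partners.

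Without array 12, which leaves 1 array at 24 h under anti-miR-135b that is assumed to vary like the other groups, 1 of the 103 listed genes was called lower and 0 higher, against 18 lower and 4 higher with all arrays. Without it the change was -2.34 for Sqstm1 (adjusted p = 0.047) and -1.57 for Eif1a (adjusted p = 0.050). With median scaling the counts were 8 and 1. In the control arm from 24 to 48 h, 3 of the 103 genes fell and 1 rose (0.926% of all tested probes were called). Sqstm1 fell by 2.25 (adjusted p = 0.0036), Ppp1r15a by 1.82 (adjusted p = 0.012) and Nploc4, a cofactor of Vcp, by 1.04 (adjusted p = 0.032), and Cirbp was higher by 1.40 (adjusted p = 0.0055). Without 24 h control array 2 the counts were 0 and 0, without array 3 they were 1 lower and 0 higher, and with median scaling 1 lower and 12 higher.

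**Figure D5:**
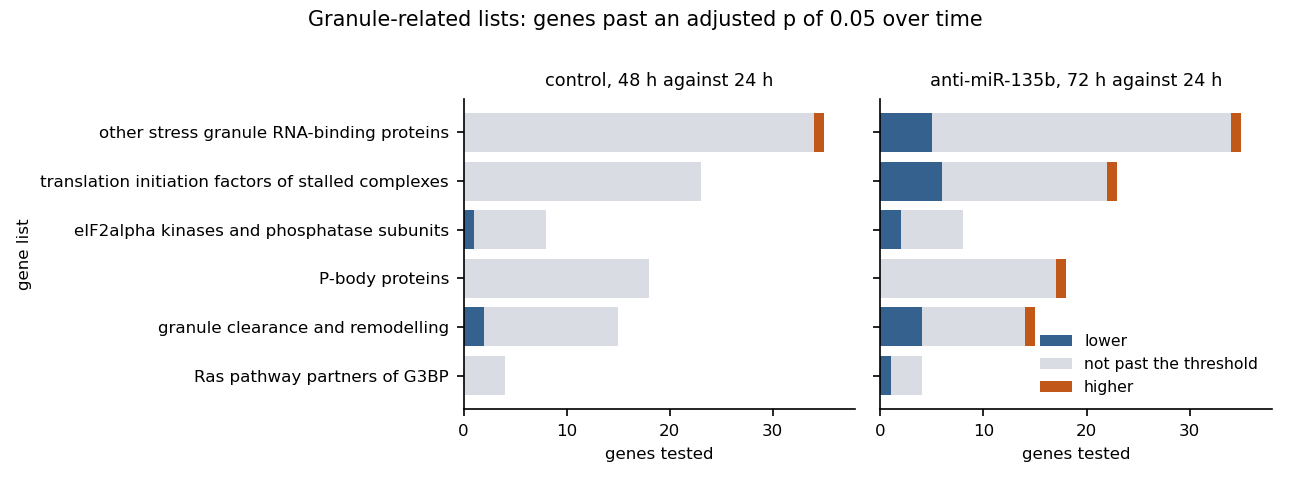
Number of tested genes (horizontal axes) in 6 lists of granule-related genes, coloured by whether they were lower, higher or not past an adjusted p of 0.05, for 48 h against 24 h in the control and 72 h against 24 h under anti-miR-135b. Under anti-miR-135b the initiation factors have 6 lower of 23 and the granule RNA-binding proteins 5 lower of 35.

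The probes whose levels over the 16 arrays were most like those of G3bp2 ILMN_2666747, among 11880 candidates of named genes, were those of Gmcl1 (r = 0.87), Rab2a (r = 0.82), Arsb (r = 0.78), Nectin3 (r = 0.77) and Cbx3 (r = 0.77). Their mean inhibitor differences ran from -0.98 for Cbx3 to -0.35 for Rab2a. Negative values are favoured by the way they were picked, since ILMN_2666747 was itself chosen for its inhibitor difference. By deviations from group means, which leave out the inhibitor and time, the most like were Tmem9 (r = 0.88), Ccdc85b (r = 0.87), Cstad (r = 0.86), Stard13 (r = 0.86) and Pvr (r = 0.85). The mean inhibitor differences of this set ran from -0.19 for Pvr to 0.02 for Stard13. No gene is in both sets. Arrays of a set share chips and scaling, and these are the highest of many values.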

How the data were processed

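Biotin-labelled cRNA of 16 samples was hybridized to Illumina mouse arrays, and the authors deposited bead-averaged intensity values of 25697 probes, made with GenomeStudio per the submitters' processing notes (no version is named there). The authors deposited a second table of log2 values, with no normalization named in those notes. Each of its 16 columns ranked probes most like its own array (Spearman's rho 0.999 or more), with column medians of 8.24 to 8.26, and it served as an alternative. No detection p-values or control probes were used here.

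Intensities were background corrected in limma 3.58.1 (R 4.3.3) with normexp (saddle, offset 50), quantile normalized and put on the log2 scale. Correction widens and the offset narrows differences of dim probes. Probes with a mean above the median were kept (12848, for 9032 named genes). Gene symbols came from the platform annotation (1 symbol for 23978 probes, none for 1719). lmFit and eBayes fitted 1 mean per group in all samples (10 residual and 7.76 prior degrees of freedom), with two-sided p-values adjusted by Benjamini-Hochberg over all kept probes of a contrast and a threshold of 0.05. The steps were tested on simulated data.

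The members and gene lists were chosen with earlier results of these data known. Named were all members, up to 4 genes per list by smallest p, Rasa1, and the 5 most like G3bp2 by each measure. Alternatives changed background, scaling, filter, weights, samples and pairing, and left out each array. Shared replicate numbers do not exist in the labels. Because the labels state no pairing, none was assumed. Numbers n and n + 9 as pairs gave correlations of deviations from 0.08 to 0.56, which does not settle whether they were paired. A replicate block on these pairs called 100 probes in the mean of 48 and 72 h, against 0 without it.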

Additional observations from a re-analysis of the deposited data

Results flagged for a closer look

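Among the 15 tested probes of granule genes other than G3bp2, Tia1 and Atxn2 had inhibitor differences of opposite sign at 48 and 72 h, with every array of an arm on the same side. For Tia1 ILMN_2911936 the 72 h difference minus the 48 h difference was 1.09 (adjusted p = 0.85, and 0.22 to 1.00 over the alternatives and left-out arrays). For Atxn2 ILMN_1235437 it was -0.75 (adjusted p = 0.85), and it ranged from -0.78 to -0.02 over the alternatives other than left-out arrays. The -0.02 came with median scaling, where the median term of all tested probes was 0.37. Neither interaction passed the threshold under any alternative. Both terms compare a difference on the first chip with a difference on the second.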

How the results depend on the processing

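Under median scaling the difference of G3bp2 ILMN_2666747 was -1.28 at 48 h and -0.69 at 72 h, against -0.65 and -0.97, and the cause was not tested. The median difference of all tested probes was then -0.27 at 48 h and 0.08 at 72 h, against -0.01 at both times. In the mean of 48 and 72 h the difference of ILMN_2666747 stayed between -0.98 and -0.67 over the alternatives. Leaving out arrays in turn gave -0.76 to -0.49 at 48 h and -1.05 to -0.85 at 72 h. Called granule probes other than G3bp2 from 24 to 72 h under anti-miR-135b numbered 4, but 0 with median scaling, 1 with the authors' deposited value table and 0 to 3 when an array was left out, and reached 6 when only the compared groups were fitted. From 24 to 48 h in the control they numbered 0, but 1 without background correction, 1 with median scaling and 1 with the authors' deposited value table. The cause of these shifts was not tested, beyond the smaller number of samples when arrays are left out. Over all probes the calls from 24 to 72 h went from 1025 to 25 without array 12 and to 377 with median scaling, and those from 24 to 48 h from 119 to 1267 with median scaling. At 48 h, 72 h and in their mean 0 granule probes other than G3bp2 were called under any alternative. The labels give no shared replicate numbers and state no pairing. A replicate block that assumes control number n pairs with number n + 9 called 13 probes at 48 h, 58 at 72 h, 100 in the mean and 12 at 24 h over all probes, and 0 of the granule probes other than G3bp2. In the mean it called 4 of the 103 listed genes higher and 1 lower, against 0, and array weights called 1 lower. Of 20 granule differences with an unadjusted p under 0.05 none changed sign under an alternative, and of 85 others 45 did. Signal over background limits Fmr1 and Fxr1, whose only probes were dim.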
